A study of Mus musculus with 6 samples.

Results

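The genes described here encode 10 neuropeptide precursors outside the opioid families, namely Sst, Npy, Cck, Vip, Adcyap1, Crh, Cartpt, Nts, Gal and Vgf. They were chosen by symbol, and all 10 were found, each as 1 of the 55359 genes of the deposited table. The table comes from RNA sequencing of the habenula of C57BL/6 mice at 2 months of age, with 3 libraries from WT mice and 3 from mice labelled Tet2 cKO, a conditional knockout of Tet2. Tet2 encodes an enzyme that oxidises methylated cytosine. Which Cre line or promoter was used, which cells lost the gene and whether the WT mice carried a floxed allele or Cre is not given in the sources used here. No label ties a library to 1 animal or to a pool of animals, so the p-values describe the spread between these libraries, which may be technical.

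Neuropeptides are made as longer precursors that convertases cut, carboxypeptidases trim and, for many, an amidating enzyme finishes inside dense-core vesicles. Once released, most act on G protein-coupled receptors and tune how neurons respond to fast transmitters. The habenula is a small epithalamic relay: its medial division sends cholinergic and peptidergic fibres to the interpeduncular nucleus, and its lateral division, largely glutamatergic, reaches the midbrain nuclei that release dopamine and serotonin.

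Library totals lay between 16089676 and 17917987 counts. All 6 pan-habenula markers, among them the orphan receptor gene Gpr151 and the transcription factor gene Pou4f1, were measured in every library, with sums of 93.2 to 192 FPKM (the count scaled by exonic length and library total) in WT and 127 to 167 FPKM in the libraries labelled Tet2 cKO. WT replicate 3 stood apart, at 30.4 on the first principal component of log2 CPM (counts scaled to the library total) against -14.8 to 8.12 for the other 5 libraries, and had the lowest level of all 6 pan-habenula markers. Its share of mitochondrial counts was 7.66%, against 5.43% to 6.44% in the others, and the part of these differences in the results was not tested. Tet2, which checks the labels, ranged from 3.45 to 3.71 FPKM in WT and from 3.96 to 4.47 FPKM in the libraries labelled Tet2 cKO. The targeted gene was therefore not lower in the count over the whole gene, and each direction given here follows the label alone.

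Regulation by cAMP is a shared theme of neuropeptide genes: the cAMP response element TGACGTCA, bound by CREB, was first described in the somatostatin gene. The RefSeq promoter table (GRCm38.p6) held windows for 8 of the 10 genes. They had 9 windows, as Adcyap1 has 2, and a gene was counted once if any of its windows held the letters. The shares set against them are counted per window. In the 250 bases before the RefSeq start, 2 of these 8 genes, Sst and Cartpt, held the full element, against 1.55% of 32851 windows. The core TGACG, which is part of the full element, was sought on both strands (TGACG or CGTCA) and occurred in 6 of the 8 genes, against 17.8% of windows. The sequences below show the 2 genes with the full element, and the most and least abundant of the 10, Cck and Vip, each of which has the core alone. They run 5′ to 3′ along the gene and end at the base before the RefSeq start, with the full element or the core in capitals.
Sst (chr16:23890845-23891094, minus strand): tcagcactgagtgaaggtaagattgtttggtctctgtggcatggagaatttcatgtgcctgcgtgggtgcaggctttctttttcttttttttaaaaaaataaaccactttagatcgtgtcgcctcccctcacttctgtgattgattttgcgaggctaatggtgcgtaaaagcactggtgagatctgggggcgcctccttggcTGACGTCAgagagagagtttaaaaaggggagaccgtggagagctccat
Cartpt (chr13:99900684-99900933, minus strand): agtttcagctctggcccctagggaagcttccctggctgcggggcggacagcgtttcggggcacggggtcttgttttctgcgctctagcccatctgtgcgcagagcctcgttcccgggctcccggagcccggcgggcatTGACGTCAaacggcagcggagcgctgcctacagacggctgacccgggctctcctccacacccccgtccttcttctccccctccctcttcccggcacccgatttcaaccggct
Cck (chr9:121495695-121495944, minus strand): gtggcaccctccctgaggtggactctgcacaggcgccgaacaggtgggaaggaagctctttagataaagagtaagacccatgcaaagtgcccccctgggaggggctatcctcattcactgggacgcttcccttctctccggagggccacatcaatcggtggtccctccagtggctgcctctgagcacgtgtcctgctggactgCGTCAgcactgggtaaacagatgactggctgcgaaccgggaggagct
Vip (chr10:5638968-5639217, plus strand): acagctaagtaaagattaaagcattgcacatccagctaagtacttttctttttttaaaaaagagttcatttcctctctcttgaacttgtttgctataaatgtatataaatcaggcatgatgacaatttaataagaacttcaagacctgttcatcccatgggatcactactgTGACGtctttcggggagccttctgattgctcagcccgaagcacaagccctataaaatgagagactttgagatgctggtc
The element began 48 bases before the RefSeq start in Sst and 112 bases before it in Cartpt, and the core began 47 bases before it in Cck and 79 in Vip. The RefSeq start is that of the GENCODE gene given further on for Cck and Vip, but it lies 114 bases inside the GENCODE gene for Sst and 408 bases inside it for Cartpt, so both elements are within those GENCODE genes. Cck and Vip, shown as the extremes of the order of levels below, both had the core. Sst and Cartpt had their highest library in WT replicates 3 and 2. Whether the letters go with level or pattern was not tested. A match describes these letters and does not show that a factor binds there.

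The 10 genes spanned more than 3 orders of magnitude. Mean FPKM over the 6 libraries was 131 for Cck, 39.2 for Vgf, 13.1 for Adcyap1, 10 for Sst, 4.38 for Gal, 3.43 for Npy, 2.42 for Nts, 1.96 for Cartpt, 0.270 for Crh and 0.0783 for Vip. Cck, at rank 192 of the 14539 genes whose mean reached 1 FPKM, and Vgf, at rank 1114, were among the abundant transcripts of the tissue. The steps from Cck to Vgf, Vgf to Adcyap1, Sst to Gal and Cartpt to Crh were larger than the spread over libraries, with ranges that did not overlap. Adcyap1 and Sst, Gal and Npy, Npy and Nts, Nts and Cartpt, and Crh and Vip were neighbours whose ranges overlapped. In those pairs the order held in 5, 4, 4, 2 and 6 of 6 libraries, so the order within the group from Gal to Cartpt is not settled by these libraries.

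**Figure D1:**
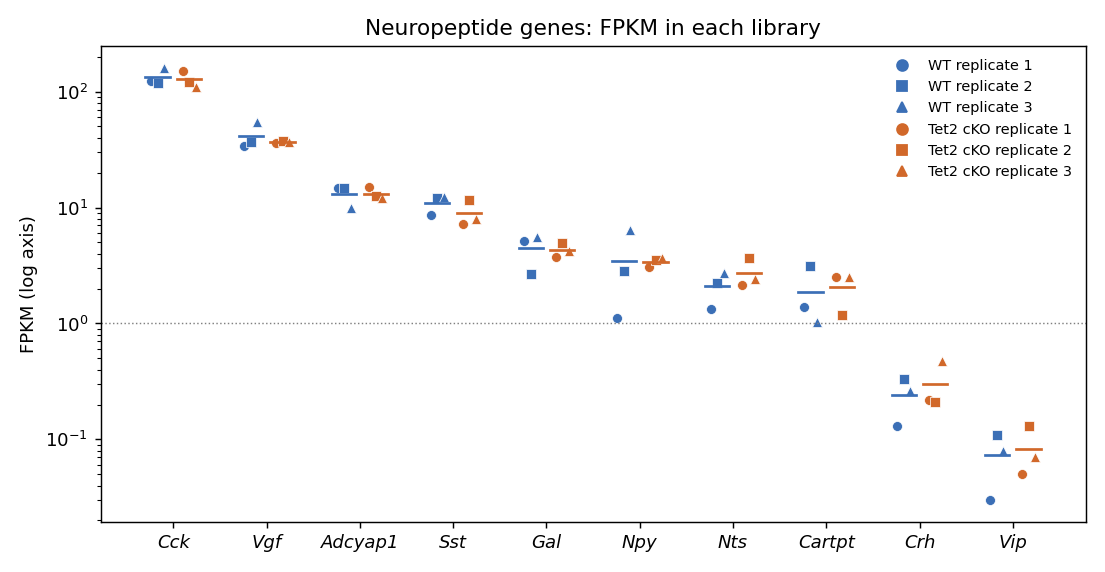
FPKM of the 10 neuropeptide genes in each of the 3 WT (blue) and 3 Tet2 cKO (orange) libraries on a log axis, with 1 symbol per library, a bar at each group mean and a dotted line at the limit of 1 FPKM for testing. Cck lies above 109 FPKM in every library and Vip at or below 0.13 FPKM.

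No neuropeptide gene passed the test between the groups, and in none were the groups apart. The edgeR quasi-likelihood test, run on the 14539 genes whose mean FPKM over the 6 libraries reached 1, called 0 of the 8 members tested at a Benjamini-Hochberg adjusted p under 0.05, against 0% of all genes tested. At an unadjusted p under 0.05 it had 0 of the 8, against 2.57% of all genes. DESeq2 and limma also called 0 of the 8. FPKM ranges failed to overlap between the groups in 0 of the 10 genes, against 6.8% of genes tested (3.34% with the label higher and 3.46% with it lower). Of the 8, 2 had an estimate above WT and 6 below, with a median log2 difference of -0.052 against -0.0021 over all genes tested.

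Cck encodes cholecystokinin, among the most abundant peptides of the brain and also a gut hormone. Cck (ENSMUSG00000032532, GRCm38 chromosome 9, 121489824 to 121495694, minus strand) measured 123.51, 118.54 and 161.04 FPKM in WT replicates 1 to 3, against 151.40, 120.39 and 109.62 FPKM in the replicates labelled Tet2 cKO. The highest level was in WT replicate 3 and the next in Tet2 cKO replicate 1, and the groups overlapped throughout. The log2 difference was -0.089 (SE 0.140), or 0.940-fold with a 95% interval of 0.756 to 1.17-fold. Leaving out WT replicate 3 gave 0.072 and leaving out Tet2 cKO replicate 3 gave 0.0084, so its sign is not settled.

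Vgf encodes a granin-like precursor induced by nerve growth factor, which yields several bioactive peptides. Vgf (ENSMUSG00000037428, plus strand of chromosome 5, 137026392 to 137033351) measured 34.09, 36.86 and 54.37 FPKM in the WT libraries, against 36.01, 37.58 and 36.40 FPKM under the Tet2 cKO label. WT replicate 3 lay far above the other 5 libraries, which fell within 34.09 to 37.58 FPKM. On the log2 scale the difference was -0.20 (SE 0.151), or 0.872-fold (0.690 to 1.10-fold), and without WT replicate 3 it was 0.050. Cck and Vgf had the most alike profiles of any pair among the 8 tested genes, with a root-mean-square distance of 0.175 between their centred log2 CPM values over the 6 libraries, where Npy and Cartpt, the least alike, were 0.979 apart.

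Adcyap1 encodes PACAP, a peptide related to VIP that raises cAMP in its target cells. Adcyap1 (ENSMUSG00000024256, plus strand of chromosome 17, 93199017 to 93206537) measured 14.68, 14.83 and 9.98 FPKM in the WT libraries, against 14.89, 12.46 and 11.99 FPKM under the Tet2 cKO label. It was lowest in WT replicate 3, where Cck and Vgf were highest. The log2 difference was -0.013 (SE 0.148), or 0.991-fold (0.788 to 1.25-fold).

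Sst encodes somatostatin, an inhibitory peptide best known from a class of forebrain interneurons and as a brake on growth hormone. Sst (ENSMUSG00000004366, minus strand of chromosome 16, 23889573 to 23890958) measured 8.58, 12.15 and 12.35 FPKM in the WT libraries, against 7.24, 11.69 and 7.99 FPKM under the Tet2 cKO label. In each group the libraries were split, with WT replicates 2 and 3 and Tet2 cKO replicate 2 above 11 FPKM and the other 3 below 9 FPKM. On the log2 scale the difference was -0.30 (SE 0.221), or 0.810-fold (0.576 to 1.14-fold). Sst and Nts were the only members whose estimate kept its sign in every alternative run, and neither passed in any of them.

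Npy encodes neuropeptide Y, a peptide of inhibitory neurons in the forebrain and a strong driver of feeding in the hypothalamus. Npy (ENSMUSG00000029819, plus strand of chromosome 6, 49822710 to 49829507) had 11, 26 and 64 counts in WT, or 1.12, 2.86 and 6.37 FPKM, and 30, 36 and 37 under the Tet2 cKO label, or 3.04, 3.55 and 3.66 FPKM. The 3 labelled libraries lay close together, inside a 5.69-fold range of WT. This range is larger than counting error, since the exact Poisson 95% intervals were 5.49 to 19.7 counts in WT replicate 1 and 49.3 to 81.7 counts in WT replicate 3. The log2 difference was -0.030 (SE 0.483), or 0.979-fold, with an interval of 0.463 to 2.07-fold, the widest of the 8 tested genes. Without WT replicate 3 it was 0.80, and without WT replicate 1 it was -0.45.

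Gal encodes galanin, a mostly inhibitory peptide. Gal (ENSMUSG00000024907, minus strand of chromosome 19, 3409915 to 3414544) measured 5.14, 2.68 and 5.58 FPKM in the WT libraries, against 3.71, 4.96 and 4.19 FPKM under the Tet2 cKO label. WT held both the highest and the lowest library. On the log2 scale the difference was -0.074 (SE 0.281), or 0.950-fold (0.615 to 1.47-fold), and without WT replicate 2, the lowest library, it was -0.34.

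Nts encodes neurotensin, a peptide that modulates dopamine signalling and body temperature. Nts (ENSMUSG00000019890, minus strand of chromosome 10, 102481756 to 102490486) measured 1.34, 2.24 and 2.71 FPKM in the WT libraries, against 2.16, 3.67 and 2.42 FPKM under the Tet2 cKO label. All 3 labelled libraries lay above the WT mean of 2.10 FPKM, but WT replicate 3 was above Tet2 cKO replicates 1 and 3. The log2 difference was 0.38 (SE 0.306), or 1.30-fold (0.812 to 2.10-fold), the largest among the 8 tested genes. It was 0.12 without Tet2 cKO replicate 2 and 0.14 without WT replicate 1, so the size rests on these libraries.

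Cartpt encodes the precursor of CART peptides, named for a transcript induced by cocaine and amphetamine. Cartpt (ENSMUSG00000021647, minus strand of chromosome 13, 99898489 to 99901091) had 31, 65 and 23 counts in WT, or 1.40, 3.16 and 1.02 FPKM, and 56, 27 and 57 under the Tet2 cKO label, or 2.51, 1.18 and 2.50 FPKM. The libraries fell into a higher set, WT replicate 2 and Tet2 cKO replicates 1 and 3, and a lower set made of the other 3. Poisson intervals did not overlap between the extremes, at 50.2 to 82.8 counts in WT replicate 2 and 14.6 to 34.5 counts in WT replicate 3. On the log2 scale the difference was 0.15 (SE 0.428), or 1.11-fold (0.572 to 2.16-fold), and it was 0.76 without WT replicate 2.

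Crh, the corticotropin-releasing hormone gene that starts the pituitary stress response, and Vip, the gene of vasoactive intestinal peptide, lay under 1 FPKM and were not in that test. Crh (ENSMUSG00000049796, minus strand of chromosome 3, 19693401 to 19695396) had 3, 7 and 6 counts in WT and 5, 5 and 11 in the libraries labelled Tet2 cKO. Vip (ENSMUSG00000019772, plus strand of chromosome 10, 5639218 to 5647617) had 2, 6 and 5 counts in WT and 3, 8 and 4 in the libraries labelled Tet2 cKO. Summed over a group, Crh had 16 (exact Poisson 95% interval 9.15 to 26.0) and 21 (13 to 32.1) counts, and Vip had 13 (6.92 to 22.2) and 15 (8.40 to 24.7), intervals that cover counting error only. In the edgeR fit without a filter the fold was 1.25 (0.489 to 3.21-fold) for Crh and 1.10 (0.372 to 3.26-fold) for Vip. None of the 10 genes has exons that overlap another gene in GENCODE release 21.

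**Figure D2:**
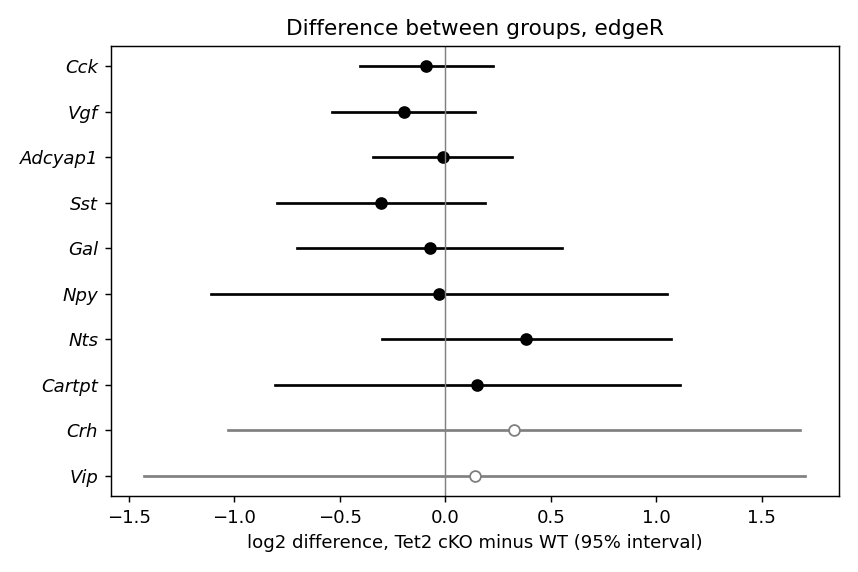
Log2 difference, Tet2 cKO minus WT, with its 95% interval from edgeR for the 10 genes in order of level. Filled points are the 8 genes tested and open grey points are Crh and Vip, from the fit without a filter; every interval includes 0, with SEs from 0.140 for Cck to 0.791 for Vip.

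Libraries of the same group differed widely in these genes. Over the 6 libraries, the range of log2 CPM had a median of 0.90 over the 8 tested genes and 0.36 over all genes tested. All 8 lay above that median, and Npy, Cartpt, Nts and Gal, with ranges of 2.31, 1.55, 1.39 and 1.03, were above the 90th percentile of 0.95. Low counts widen a range, and these 4 are the least abundant of the 8. The edgeR biological coefficient of variation, which takes counting error out, had a median of 19.4% over the 8 against 9.69% over all genes tested, from 12.7% for Cck to 37.5% for Npy.

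The spread was not alike in the groups. The median range of the 8 genes was 0.82 in WT and 0.44 in the libraries labelled Tet2 cKO, where all genes tested had medians of 0.27 and 0.21. Vgf spanned 0.67 in WT and 0.081 in the labelled libraries, and Npy 2.31 and 0.26. Sst went the other way, with 0.52 and 0.70, as did Cck by a small margin, with 0.45 and 0.46. Whether the groups differ in spread was not tested, and WT replicate 3 was the highest library for Sst, Npy, Cck, Gal and Vgf and the lowest for Adcyap1 and Cartpt. Over all genes tested it was the highest library in 25.3% and the lowest in 29.1%.

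**Figure D3:**
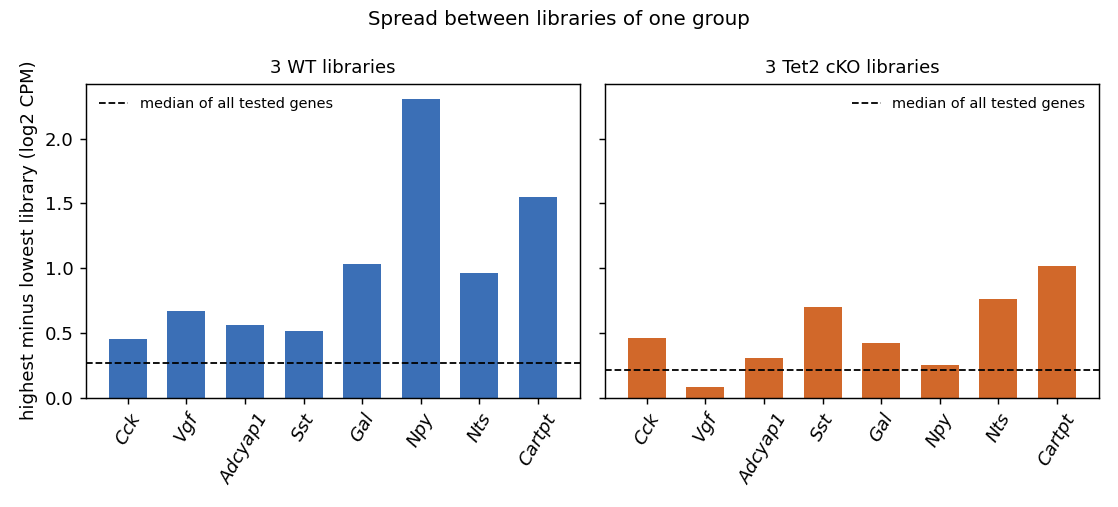
Range of log2 CPM (highest minus lowest library) for the 8 tested genes within the 3 WT and within the 3 Tet2 cKO libraries, with a dashed line at the median of all tested genes (0.27 and 0.21). Npy and Cartpt reach 2.31 and 1.55 in WT, and Vgf in the Tet2 cKO libraries is the 1 bar under its line, at 0.081.

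Markers of the cells a habenula dissection can hold were set beside these genes by library. In bulk tissue, fewer cells of a type and less RNA per cell cannot be told apart. The 6 libraries had the same order for Cartpt as for the summed pan-habenula markers, which were 150, 192 and 93.2 FPKM in WT and 167, 127 and 164 FPKM in the libraries labelled Tet2 cKO. Adcyap1 shared their lowest library only. Of the markers taken singly, Gpr151 and Irx2 had that order, and Nwd2, Pou4f1, Nr4a2 and Etv1 did not. The Cartpt order rested on close values. Tet2 cKO replicates 1 and 3 were at 2.51 and 2.50 FPKM, with counts of 56 and 57. The Poisson 95% intervals of WT replicate 1, Tet2 cKO replicate 2 and WT replicate 3 overlapped. They were 21.1 to 44.0, 17.8 to 39.3 and 14.6 to 34.5 counts. This match of order was found after the values were seen, 1 of 10 genes set against 8 marker lists, and the part of habenula content in the Cartpt values was not tested. Of the 8 medial habenula markers, 7 were lowest in WT replicate 3, with sums of 90.05 to 170 FPKM in WT and 110 to 159 FPKM in the labelled libraries.

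Lateral habenula markers did not share that dip as a sum. Their 6 members added up to 240 to 310 FPKM in WT, highest in replicate 3, and to 278 to 289 FPKM in the libraries labelled Tet2 cKO. Most of the sum was Gap43, a growth-cone gene of many neurons, and 4 of the 6 were lowest in WT replicate 3. Markers of GABAergic neurons, which in the forebrain often carry Sst or Npy, summed to 67.5 to 84.6 FPKM in WT and to 65.8 to 85.9 FPKM in the labelled libraries. Gad1, the GABA-synthesising enzyme gene, was at 9.27 FPKM in WT replicate 3 and 6.47 FPKM in Tet2 cKO replicate 2 against 2.52 to 3.38 FPKM in the other 4 libraries. The defining genes of forebrain interneurons, Dlx1, Dlx2, Dlx6os1 and Lhx6, did not exceed 0.14 FPKM in any library. Hippocampal markers summed to 76.3 to 82.1 FPKM in WT and 72.2 to 80.5 FPKM in the labelled libraries. The largest part was Bok, at 33.8 to 41.9 FPKM. Of that list, Neurod2, Neurod6 and Dsp were higher in WT replicate 2 and Tet2 cKO replicates 1 and 3 than elsewhere. Cartpt had the same split, which was seen with the values in view, and the rest of the list did not share it. Neurod6 and Dsp lay under 1 FPKM. Thalamic markers summed to 680 to 735 and 654 to 687 FPKM in the groups. Calb2 and Slc17a6, at 251 to 332 and 118 to 132 FPKM, were the largest parts. Hypothalamic markers summed to 2.19 to 2.30 and 1.68 to 2.55 FPKM. The part of these lists in the levels of the neuropeptide genes was not tested.

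**Figure D4:**
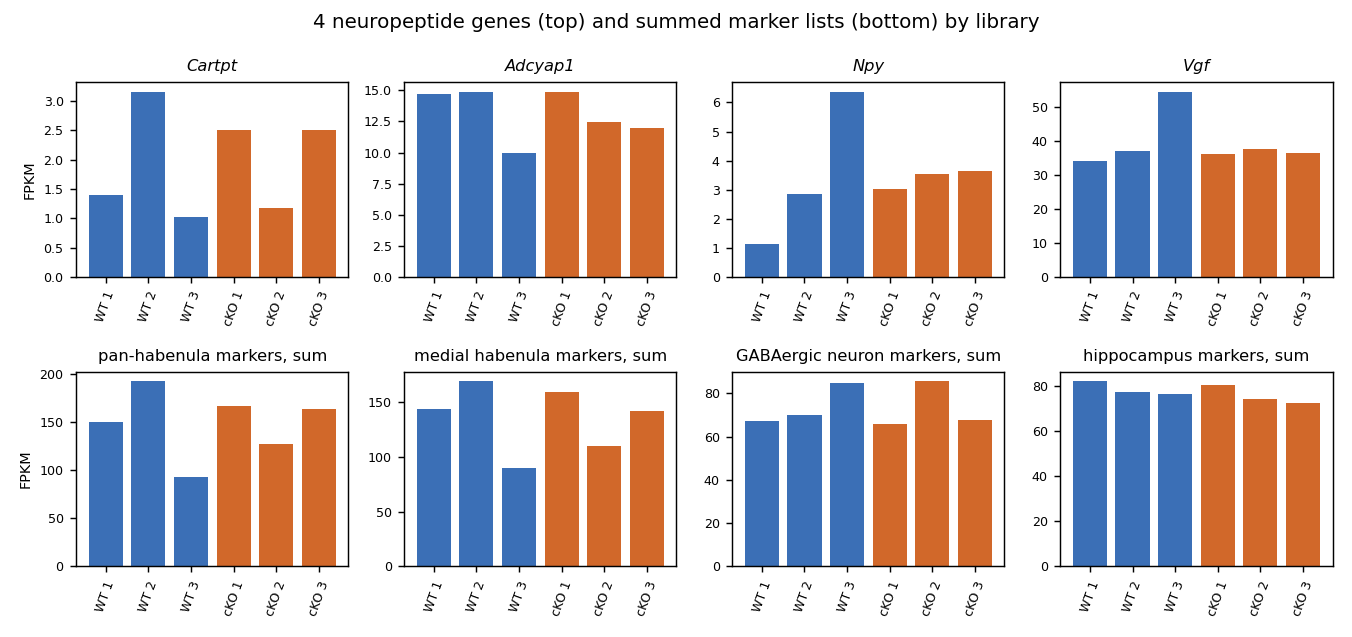
FPKM by library of Cartpt, Adcyap1, Npy and Vgf (top) and summed FPKM of 4 marker lists (bottom), with WT in blue and Tet2 cKO in orange, each panel starting at 0 on its own scale. WT replicate 3 is lowest in Cartpt, Adcyap1 and the pan-habenula sum (93.2 FPKM) and highest in Npy and Vgf.

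For the 3 genes with the widest range, the genes nearest in profile were found by the root-mean-square distance between centred log2 CPM values over the 6 libraries. Npy was nearest to Xlr3b, Ctrl and Rpl21, at 0.293, 0.311 and 0.346, and the count of Rpl21 is uncertain because it has near-identical copies. Cartpt was nearest to Egr3, an activity-induced transcription factor gene, Nrgn, a calmodulin-binding protein gene of forebrain neurons, and Neurod2, a transcription factor gene of excitatory forebrain neurons, at 0.236, 0.268 and 0.272. Neurod2 is also in the hippocampal marker list. Nts was nearest to Rnase1, Efcc1 and the glycine receptor gene Glra3, at 0.0853, 0.118 and 0.157. With 6 libraries and 14539 genes, some near profiles arise for any gene, and these are given as a description.

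Receptors for 8 of the 10 peptides were examined as a list of 23 genes, of which 14 had at least 1 FPKM. The edgeR test called 0 of the 14 (0% of all genes tested), with 0 at an unadjusted p under 0.05 (2.57% of all genes). Their median log2 difference was 0.078, against -0.0021 over all genes tested. The most abundant were Ntsr2, a neurotensin receptor gene expressed in astrocytes, and Adcyap1r1, the PACAP receptor gene, followed by Sort1, a sorting receptor gene that also binds neurotensin, with means of 51.7, 34.5 and 33.9 FPKM. Ntsr2 measured 48.14, 47.73 and 50.70 FPKM in the WT libraries, against 57.72, 52.05 and 53.72 FPKM under the Tet2 cKO label. Its log2 difference was 0.15 (SE 0.0679). Vipr2, the VIP receptor gene with the higher level, measured 2.86, 2.67 and 2.53 FPKM in the WT libraries, against 3.25, 3.08 and 3.08 FPKM under the Tet2 cKO label. Its log2 difference was 0.21 (SE 0.107). These 2 were the receptors among the 14 whose groups did not overlap, where 6.8% of genes tested did so in either direction. Both were higher under the label, as were 3.34% of genes tested, and neither passed (edgeR adjusted p = 0.9999 each).

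Adcyap1r1 stood at 32.7 ± 2.73 FPKM in WT and 36.2 ± 5.39 FPKM in the libraries labelled Tet2 cKO (SD, n = 3 each). The estimate on the log2 scale was 0.14 (SE 0.112). Its level was thus above that of its ligand gene in both groups. Sstr2, the somatostatin receptor gene with the highest level, stood at 9.31 ± 2.85 and 8.28 ± 1.17 FPKM, and Npy1r at 3.34 ± 0.585 and 3.21 ± 0.255 FPKM (SD, n = 3 each). Crhr1 averaged 1.77 FPKM in WT and 2.14 FPKM under the label, and Galr1 1.72 and 1.68 FPKM. Cckbr, the main cholecystokinin receptor gene of the brain, was at 0.790 FPKM in WT and 0.667 FPKM in the labelled libraries, far below its abundant ligand gene. Npy6r had 0 counts in all 6 libraries.

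Crhr2, a receptor for CRH and the urocortins, was singled out after its values were seen. It had 47, 25 and 13 counts in WT and 14, 11 and 9 in the libraries labelled Tet2 cKO, a log2 difference of -1.39 (SE 0.405; edgeR without a filter, adjusted p = 0.229). Without WT replicate 3 it was -1.75 with an edgeR adjusted p of 0.00290, and without WT replicate 1 it was -0.83 with an adjusted p of 0.977. Over all its alternatives the adjusted p ran from 0.00290 to 0.9995, the latter with DESeq2, and leaving out WT replicate 3 was the 1 alternative in which it passed. Choroid plexus markers had a similar order, with sums of 1393, 831 and 445 FPKM in WT and 820, 168 and 280 FPKM in the labelled libraries, and all 8 were lower by estimate. Most of the sum was Ttr, at 158 to 1347 FPKM. In the edgeR test 7 of the 8 had an unadjusted p under 0.05, against 2.57% of all genes tested. All but Otx2 were highest in WT replicate 1 and lowest in Tet2 cKO replicate 2, so the 8 are not separate counts. After adjustment 0 of the 8 passed. The part of choroid plexus RNA in the Crhr2 counts was not tested. Cckar, also chosen after its values were seen, had 8, 8 and 8 counts in WT and 3, 4 and 2 in the labelled libraries. Its groups did not overlap, unlike those of Crhr2, and it did not pass (edgeR without a filter, adjusted p = 0.970). Of the genes tested, which exclude Cckar, 6.8% did not overlap in either direction, and 3.46% were lower under the label without overlap.

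Genes that process, store, release or, as the peptidase genes Mme and Ece1, break down peptides were examined as 1 list. Their mean level ranged from 0.947 FPKM for the convertase gene Pcsk5, the 1 gene under the limit, to 1169 FPKM for Cpe. Of 22 such genes 21 were tested, and the edgeR test called 0 (0% of all genes tested), with 0 at an unadjusted p under 0.05 (2.57% of all genes) and a median log2 difference of 0.0063. All 21 estimates lay between -0.077 and 0.13. Cpe, the carboxypeptidase gene that trims precursors, stood at 1120 ± 67.9 FPKM in WT and 1218 ± 29.3 FPKM in the libraries labelled Tet2 cKO (SD, n = 3 each). The convertase genes Pcsk1 and Pcsk2 averaged 6.87 and 59.0 FPKM in WT, with 7.12 and 56.6 FPKM under the label, and Pcsk2 exons overlap antisense transcripts. Pam, the amidating enzyme gene, differed by 0.11 (SE 0.108) on the log2 scale. The granin genes Scg2 and Chgb, whose products are carried in the same vesicles, differed by -0.0026 (SE 0.0766) and 0.0063 (SE 0.0728). Scg3 was the 1 of 21 whose groups did not overlap, where 6.8% of genes tested did so, at 66.34 to 76.68 FPKM in WT and 78.21 to 79.80 FPKM in the labelled libraries, and it did not pass (edgeR adjusted p = 0.9999).

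Relatives of the 10 peptides, listed with Crhbp and Nmu from outside their families, were near 0. None of the 14 listed genes, among them Cort, Pyy, Sct, Ucn, Ucn3 and the CRH-binding protein gene Crhbp, reached a mean of 1 FPKM. Pyy, Ppy, Gip, Galp and Nmu had 0 counts in all 6 libraries, and the 14 summed to at most 1.69 FPKM in a library.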

How the data were processed

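Total RNA of 6 habenula libraries was sequenced. The authors deposited raw counts per gene, which are whole numbers, with FPKM values beside them. The deposited FPKM match the count divided by exonic size and library total, on the scale that the unit's name gives, within 0.0051 (per the file headers, tested on the values). The submitters' processing notes name HISAT2 2.0.1, SAMtools 0.1.19, cutadapt 1.9.1, FastQC 0.10.1 and build mm10. Which program counted the reads, with which annotation and strand, is not given in the sources used here. The table's gene coordinates match GENCODE release 21 (GRCm38) in start and end for 1494 of 52083 shared genes and in chromosome and width for 51479, so positions were taken from GENCODE by gene identifier.

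Counts were tested with the quasi-likelihood test of edgeR 4.0.16 in R 4.3.3 (TMM, Tet2 cKO minus WT, no covariate, two-sided) over the 14539 genes whose mean reached 1 FPKM, with Benjamini-Hochberg adjustment over all of them and a threshold of 0.05. Genes under that limit come from the same fit over all 31689 genes with a count. Standard errors follow from the F statistic. The common biological coefficient of variation was 10.4%, and intervals are 95% intervals. Log2 CPM used a prior count of 2. Alternatives were DESeq2 1.42.0, its size factors in edgeR, limma 3.58.1 on log2(FPKM + 1) and log2(FPKM + 0.1), no filter, a replicate block and leaving out each library. The fit was tested on simulated data.

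The 10 genes were given, and the members and lists were chosen with earlier results of these data known. Named beside them were Tet2, the most abundant receptor of each peptide, Pcsk1, Pcsk2, Cpe, Pam, Scg2 and Chgb, relatives of at least 1 FPKM, and the 3 nearest profiles of the 3 widest-ranging members, without predicted genes, clones, pseudogenes and microRNA genes. Any other gene was named with its values in view.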

Additional observations from a re-analysis of the deposited data

How the results depend on the processing

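Among genes of at least 1 FPKM, 0 neuropeptide and receptor genes passed the threshold in every alternative run. The same held for the list of processing, storage, release and breakdown genes. Crhr2, under that limit, passed without WT replicate 3. The count over all genes tested was 0 and became 4 with DESeq2, 49 without a filter on low values and 0 to 3 when 1 library was left out. The median over the members was -0.17 to 0.061 when 1 library was left out. Of 118 alternative values of the members, 25 changed sign, and Sst (-0.54 to -0.17) and Nts (0.12 to 0.63) kept theirs. Leaving out 1 library gave log2 differences of -0.45 to 0.80 for Npy, -0.23 to 0.072 for Cck, -0.37 to 0.49 for Vip, -0.17 to 0.076 for Adcyap1, -0.15 to 0.61 for Crh, -0.14 to 0.76 for Cartpt, -0.34 to 0.13 for Gal and -0.32 to 0.050 for Vgf. It gave -0.38 to 0.039 for Sstr2, -0.20 to 0.038 for Npy1r, -0.56 to 0.13 for Cckbr, -0.20 to 0.27 for Galr1, -0.13 to 0.23 for Pcsk1, -0.17 to 0.019 for Pcsk2, -0.0049 to 0.20 for Pam, -0.053 to 0.074 for Scg2 and -0.030 to 0.084 for Chgb. Limma on log2(FPKM + 1) and log2(FPKM + 0.1) gave 0.17 and 0.29 for Npy, 0.0092 and 0.011 for Adcyap1 and 0.0082 and 0.0083 for Scg2. DESeq2, its size factors in edgeR and no filter gave 0.00098, 0.00099 and 0.0022 for Scg2. The cause was not tested.

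With the replicate block, Npy was at 0.13 and Adcyap1 at 0.0014, and the block changed no call of a member. Same-numbered libraries deviated from their group means with correlations of -0.041, 0.18 and -0.10 across genes, so the numbers were not taken to pair the libraries. On log2(FPKM + 1) the median range of the members was 0.77 against 0.30 over all genes tested. With Crh and Vip at 2 to 11 counts, depth limits what can be said of them.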
